A study of Mus musculus with 8 samples.

Results

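The nuclear genes for the subunits of the mitochondrial respiratory chain and the ATP synthase were followed in mouse CD3 T cells. They were found by symbol. A probe set, the group of array probes that reads out 1 gene, was taken where its annotation gave a single matching symbol. For complex I this was Nduf, 1 of the letters a, b, c, s or v and a number. It was Sdh and 1 letter from a to d for complex II, and Uqcr and any ending for complex III. For complex IV it was Cox, a number from 4 to 8, at most 1 letter from a to c and at most 1 digit. Atp5 and any ending gave complex V. Of 22180 genes on the array, 74 matched, namely 32 of complex I, 4 of complex II, 7 of complex III, 14 of complex IV and 17 of complex V. The pattern uses no measured value. For a gene with more than 1 probe set, the one with the highest mean over all arrays was kept.

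RNA was measured on 8 arrays, 1 for each of 8 groups, so no group had a replicate, no test between groups was possible and differences are given as values of these arrays. CD3 T cells were purified by negative selection from the spleen and lymph nodes of C57BL/6J mice. They were left untreated (naive), given the lectin concanavalin A (ConA), which binds sugars on surface receptors and activates T cells, held on a plate with a coat of poly-L-lysine (PLL), to which cells adhere through its positive charge, or given ConA on such a plate (ConA+PLL). Stimulation lasted 3 h, and the cells of the 24 h groups were then washed and cultured further. The 8 groups were the 3 treatments at 3 h and again at 24 h, untreated cells at 24 h, and untreated cells at the start, labelled as control for time and called naive at 0 h here. The number of mice behind each array was not given in the sources used here.

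Electrons from NADH enter the chain at complex I and those from succinate at complex II, pass through ubiquinone, complex III and cytochrome c, and reach oxygen at complex IV. Complexes I, III and IV pump protons across the inner mitochondrial membrane, and complex V, the ATP synthase, uses the gradient to make ATP. Resting T cells rely mainly on this oxidative route, and activated T cells build more mitochondria while glycolysis is also raised. Most subunits are nuclear genes, translated in the cytosol and imported, whereas a small set of core subunits of complexes I, III, IV and V is encoded by mitochondrial DNA. Complex II is wholly nuclear.

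All values are log2 levels, so a difference of 1 is a 2-fold difference and 1.5-fold corresponds to 0.585. Levels of different probe sets cannot be set against each other, so each gene was compared only with itself across arrays. A gene was kept where it reached 3.62, the median of the whole table, on at least 1 array, which 13428 genes did. Among the subunit genes 70 passed: 31 of complex I, 4 of complex II, 7 of complex III, 11 of complex IV and 17 of complex V. The 4 that did not were the complex I accessory subunit Ndufs5, whose highest value lay just under that level, and 3 complex IV isoforms known mainly from testis or muscle, Cox8b (3.08), Cox8c (2.76) and Cox7b2 (2.07). Another 5 subunit genes, Cox6c, Ndufb2, Ndufb4, Ndufs6 and Uqcr10, were named only on probe sets that also carried another gene's symbol, and were not analysed here.

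The array medians ran from 3.53 to 3.69, but the median over the filtered genes was 5.33 on the ConA+PLL array at 24 h and between 5.03 and 5.21 on the other 7. Each comparison is therefore given beside the same value over all filtered genes. All 11 T cell markers on the array, among them the CD3 chains and the coreceptors Cd4 and Cd8a, passed, and their summed linear level was 9805 in ConA+PLL cells at 24 h, 7748 to 8204 on the other 24 h arrays and 5416 to 7540 at 0 and 3 h. All 11 were above 0 in ConA+PLL cells at 24 h against ConA, PLL and naive cells, with medians of 0.23, 0.34 and 0.34, so that they moved with the subunit genes. After centring each array on its filtered genes, 9 of 11 were above 0, with medians of 0.11, 0.21 and 0.20. The summed level of 4 of 7 B cell markers that passed lay between 53.1 and 96.2. That of 5 of 8 monocyte and macrophage markers lay between 74.6 and 99.8. Both sums were highest in ConA+PLL cells at 24 h. On the other 24 h arrays they ran from 78.0 to 79.4 and from 76.9 to 94.2. Of the 8 NK cell markers 6 passed, and their summed level was 596 in ConA+PLL cells at 24 h against 872 to 1028 on the other 24 h arrays. Klrd1, at 8.70 against 9.51 to 9.76, held most of each sum, Eomes went the other way (0.86 above ConA cells), and 3 of the 6 were above 0 against PLL cells. The part of these markers in the values below was not tested. In bulk RNA, fewer cells of a type and less RNA per cell cannot be told apart.

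Nuclear respiratory genes are known for shared binding sites of the factors NRF1, the ETS protein GABPA, YY1 and ERR. Promoters are shown first for 4 of the 7 subunit genes at least 1.5-fold higher in ConA+PLL cells than on any other 24 h array. Each runs from 250 bases before the annotated start of the gene to 30 after it, 5′ to 3′ on the gene's strand, from RefSeq on GRCm38.p6. Capitals mark a match to 1 of the 4 motifs described after them. Not shown are Ndufa10 and Atp5d, whose windows held none of these motifs, and Uqcrb, for which no window was used here.
Ndufs8, chr19:3912745-3913024, minus strand: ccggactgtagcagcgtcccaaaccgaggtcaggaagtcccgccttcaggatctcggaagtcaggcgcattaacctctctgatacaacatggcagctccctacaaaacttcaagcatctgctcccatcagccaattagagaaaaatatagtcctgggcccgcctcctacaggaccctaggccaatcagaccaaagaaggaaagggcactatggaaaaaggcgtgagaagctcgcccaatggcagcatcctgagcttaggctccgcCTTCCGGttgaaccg
Cox6b1, chr7:30626085-30626364, minus strand: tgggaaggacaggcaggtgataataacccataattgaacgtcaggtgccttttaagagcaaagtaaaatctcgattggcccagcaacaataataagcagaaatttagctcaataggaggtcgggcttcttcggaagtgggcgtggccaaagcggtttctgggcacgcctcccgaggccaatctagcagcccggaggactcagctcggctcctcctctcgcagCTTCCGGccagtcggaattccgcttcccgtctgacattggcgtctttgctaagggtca
Atp5g2, chr15:102671018-102671297, minus strand: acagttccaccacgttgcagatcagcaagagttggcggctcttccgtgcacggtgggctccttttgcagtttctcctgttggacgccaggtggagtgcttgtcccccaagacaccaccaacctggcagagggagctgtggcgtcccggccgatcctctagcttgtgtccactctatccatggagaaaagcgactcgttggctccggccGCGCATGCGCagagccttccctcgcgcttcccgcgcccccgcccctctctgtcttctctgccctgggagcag
Cox7b, chrX:106015450-106015729, plus strand: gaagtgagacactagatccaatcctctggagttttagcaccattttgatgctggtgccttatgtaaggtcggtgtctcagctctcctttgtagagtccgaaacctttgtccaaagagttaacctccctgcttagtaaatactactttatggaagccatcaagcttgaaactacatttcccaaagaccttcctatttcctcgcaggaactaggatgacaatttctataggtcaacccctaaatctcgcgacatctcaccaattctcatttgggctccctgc
Each motif was searched on both strands of a window from 250 bases before to 50 bases after the start, which RefSeq gave for 63 of the 74 genes. The NRF1 letters (GCGC, any base, TGCGC) were found in 15 of the 63, or 23.8%, against 5.19% of all 27025 genes with a window and 10.3% of the other filtered genes that had a window. CCGGAAG (ETS) was found in 17 genes or 27%, against 9.93% of all genes and 18.3% of the other filtered genes. AANATGGCG (YY1) was found in 9 genes or 14.3%, against 2.76% and 5.23%, and TNAAGGTCA (ERR) in 2, or 3.17%, against 1.43% and 0.879%. In all, 36 of the 63 held at least 1 of the 4 motifs, which is 57.1%, against 17.1% of all genes and 30.2% of the other filtered genes. In the sequences shown, the match in Ndufs8 and that in Cox6b1 were ETS letters on the opposite strand, and that in Atp5g2 was the NRF1 letters, a palindrome here that matched on both strands and began 42 bases before the start, while Cox7b held none. No matches of different motifs overlapped in these sequences. A match of letters is not a binding site, and a window with none says only that these letters were not in it.

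The clearest array was ConA+PLL at 24 h. After each gene's mean over the 8 arrays was subtracted, the median over the 70 subunit genes was 0.26 in ConA+PLL cells at 24 h, 0.02 or less on every other array, and lowest, at -0.14, in PLL cells at 24 h. The ConA+PLL array at 24 h held the highest of the 8 values for 35 of the 70 genes, against 24.8% of all filtered genes. The PLL array at 24 h held the lowest value for 23 of the 70 (32.9%), against 10.4% of all filtered genes. The same median for complex I was 0.26 in ConA+PLL cells at 24 h and -0.17 in PLL cells at 24 h, and for complex II it was 0.31 and -0.19. For complex III the ConA+PLL value at 24 h, 0.08, was no higher than the 0.10 of ConA+PLL cells at 3 h, and for complex IV it was 0.28 at 24 h and 0.26 at 3 h. Complex V had 0.21 in ConA+PLL cells at 24 h and 0.12 in ConA cells at 3 h, its next highest array.

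**Figure D1:**
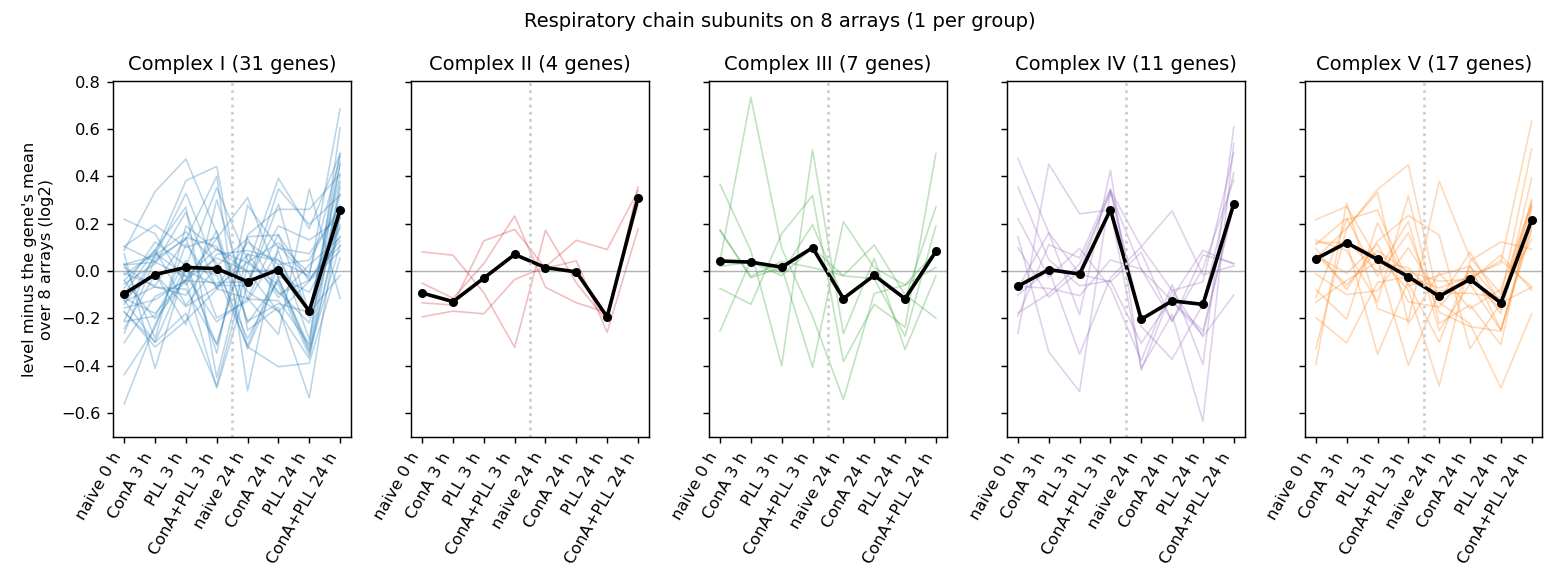
Level of each subunit gene minus its own mean over the 8 arrays (log2, vertical axis) on each array (horizontal axis, 1 array per group), with a panel for each complex. Thin lines join the values of 1 gene, the black line joins the medians, and the dotted line separates the 0 and 3 h arrays from the 24 h arrays. The medians of complexes I, II, IV and V are highest on the ConA+PLL array at 24 h, and complex III lies at 0.08 there.

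What the PLL coat added to ConA was asked first, at 24 h. The subunit genes lay mostly above their ConA level in ConA+PLL cells, with a median difference of 0.25 and 62 of 70 genes above 0. Over all filtered genes 61.6% were above 0 and the median was 0.08. At least 1.5-fold higher were 9 of the 70, against 5.19% of all filtered genes, and none was 1.5-fold lower, against 1.95%. By complex, the median was 0.22 for complex I with 29 of 31 genes above 0, 0.31 for complex II with 4 of 4, 0.11 for complex III with 5 of 7, 0.41 for complex IV with 9 of 11, and 0.25 for complex V with 15 of 17. Centring each array on the median of its filtered genes, which moved the median of all genes from 0.08 to -0.05, gave 0.12 for the subunit genes, with 53 of 70 above 0 and 3 at least 1.5-fold higher, against 42.1% and 2.66% of all filtered genes after the same centring. The 9 genes were Ndufs8 and Ndufa10 of complex I, Uqcrb of complex III, Cox5b, Cox7b, Cox6b1 and Cox7a2 of complex IV, and Atp5d and Atp5g2 of complex V.

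What ConA added on the PLL coat gave larger values, and PLL cells were the ones with the lowest subunit levels. Between ConA+PLL and PLL cells at 24 h the median difference was 0.43, with 63 of 70 genes above 0 against 59% of all filtered genes, whose median was 0.07. At least 1.5-fold higher were 14 subunit genes, against 6.58% of all, and none was 1.5-fold lower, against 2.21%. Complex IV had the highest median, 0.54, followed by complexes II (0.45), I (0.44), V (0.42) and III (0.31). After centring the median was 0.30, with 56 of 70 above 0 and 6 at least 1.5-fold higher, against 41.2% and 3.81% of all filtered genes, and 1 was 1.5-fold lower, against 4.59%. The gene furthest the other way was Ndufb8, an accessory complex I subunit, at -0.46.

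Against naive cells of the same time, ConA+PLL cells at 24 h had a median difference of 0.34, and 58 of 70 subunit genes lay above 0, against 60.1% of all filtered genes with a median of 0.08. At least 1.5-fold higher were 12, against 6.7% of all, and none was 1.5-fold lower, against 2.57%. After centring the median was 0.20, with 54 of 70 above 0 and 3 at least 1.5-fold higher, against 41.5% and 3.8% of all filtered genes. These 3 comparisons share the ConA+PLL array at 24 h, so a deviation of that array enters each of them alike.

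Each agent alone gave smaller values at 24 h. Between ConA and naive cells the median over the subunit genes was 0.05, with 41 of 70 above 0 against 52.9% of all filtered genes. Only the complex I accessory gene Ndufa5 was at least 1.5-fold higher (0.61, against 1.36% of all filtered genes), and none was 1.5-fold lower, against 2.06%. Between PLL and naive cells the median was -0.07 and 22 of 70 were above 0, against 50.3% of all, whose median was 0.00. Atp5c1, the gamma subunit that forms the rotor shaft of the ATP synthase, was 0.61 higher in PLL than in naive cells, and Ndufb6, an accessory complex I subunit, was at -0.65; 1.01% of all filtered genes were 1.5-fold higher and 0.946% lower. The ConA difference on PLL minus the ConA difference without it, in which each 24 h array enters once, had a median of 0.38 over the subunit genes, with 55 of 70 above 0 against 59.4% of all filtered genes and 15 at least 1.5-fold above against 8.33%. None was 1.5-fold below, against 4.1%. It was 0.60 for complex IV, 0.46 for complex II, 0.40 for complex V, 0.34 for complex I and 0.29 for complex III.

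**Figure D2:**
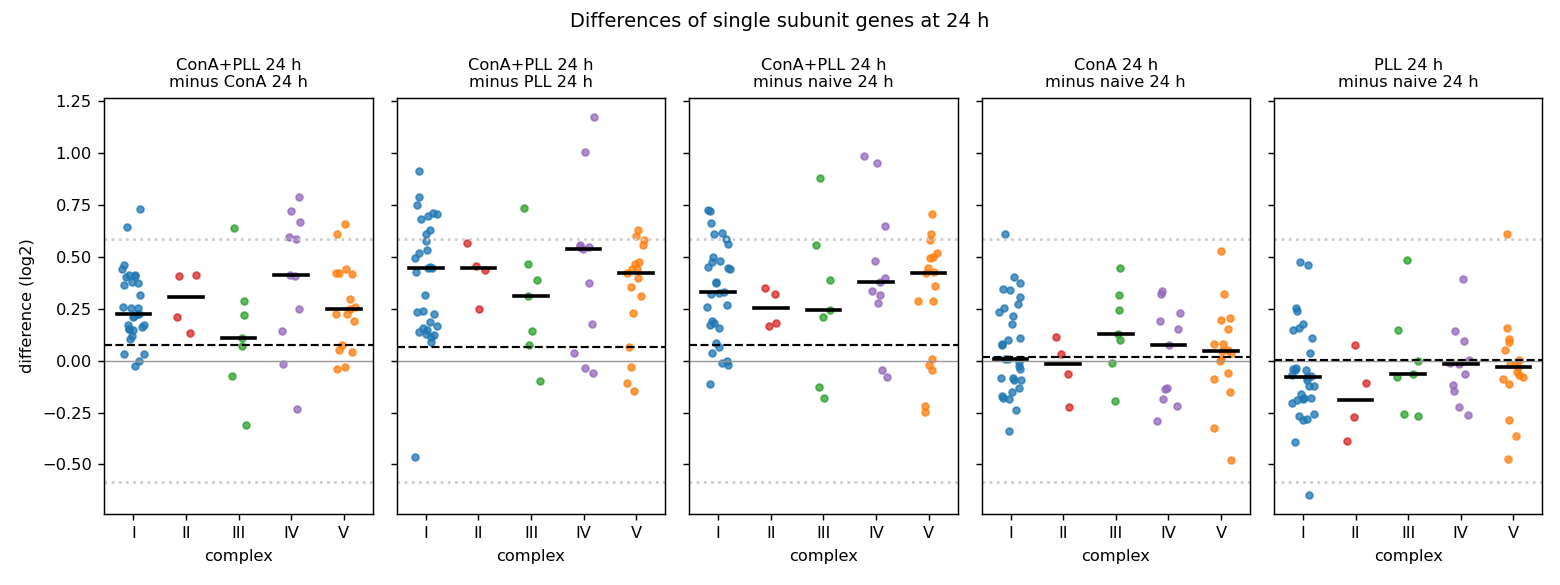
Differences of single subunit genes (log2, vertical axis) by complex (horizontal axis) in 5 comparisons of 24 h arrays. Points are genes, black bars medians of a complex, the dashed line the median of all filtered genes, and dotted lines 1.5-fold in each direction. In the 3 panels with ConA+PLL cells the medians of all 5 complexes lie above the dashed line, and in the ConA and PLL panels they lie between -0.19 and 0.13.

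Complex I takes up electrons from NADH through a flavin and a row of iron-sulfur clusters carried by conserved core subunits, of which 6 nuclear ones were measured, and 25 accessory subunits surround them. Ndufs8, a core subunit with iron-sulfur clusters near the ubiquinone site, had levels of 6.37 in naive cells at 0 h, 6.47, 6.26 and 6.79 in ConA, PLL and ConA+PLL cells at 3 h, and 6.37, 6.36, 6.18 and 7.09 in naive, ConA, PLL and ConA+PLL cells at 24 h. ConA+PLL cells had the highest value at each time, and at 24 h the difference was 0.73 from ConA, 0.91 from PLL and 0.72 from naive cells. Ndufv2, the core subunit beside the flavin-carrying Ndufv1, stood at 6.40, 6.62, 6.24 and 6.99 in naive, ConA, PLL and ConA+PLL cells at 24 h, and between 6.33 and 6.67 at 0 and 3 h. Its ConA+PLL value was 0.75 above PLL and 0.37 above ConA. The other 4 core genes differed less: between ConA+PLL and ConA cells at 24 h the values were 0.26 for Ndufv1, 0.16 for Ndufs3, and 0.15 for both Ndufs1, which carries several of the clusters, and Ndufs7. Ndufs1 and Ndufs3 were highest in naive cells, at 0 h (6.89) and at 24 h (5.67).

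Among the accessory subunits, Ndufa10 was at 7.63 in naive cells at 0 h, 7.48, 7.59 and 7.72 in ConA, PLL and ConA+PLL cells at 3 h, and 7.87, 7.84, 7.78 and 8.48 in naive, ConA, PLL and ConA+PLL cells at 24 h. The other 7 arrays lay between 7.48 and 7.87 and the ConA+PLL array at 24 h stood apart, 0.64 above ConA. Other accessory genes at least 1.5-fold higher in ConA+PLL than in PLL cells at 24 h were Ndufa4 (0.79), Ndufa12 (0.71), Ndufc2 (0.70), Ndufa8 (0.68), Ndufb9 (0.63) and Ndufs4 (0.61), and in Ndufa4, Ndufa12, Ndufc2, Ndufb9 and Ndufs4 the PLL array at 24 h was also the lowest of the 8. Ndufa4 carries a complex I name but is now known as a subunit of complex IV. Against naive cells at 24 h Ndufa9 (0.72), Ndufc2 (0.66) and Ndufa5 (0.61) were at least 1.5-fold higher, as were Ndufs8, Ndufa10 and Ndufv2. Ndufa5 had the same level in ConA and ConA+PLL cells, 5.88, and was lowest in naive cells at 24 h, at 5.26. The median difference between ConA+PLL and ConA cells was 0.21 over the 6 core genes and 0.22 over the 25 accessory genes.

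Complex II, succinate dehydrogenase, belongs to both the respiratory chain and the citric acid cycle, and its 4 genes all had their highest value of the 8 arrays in ConA+PLL cells at 24 h. Sdha, the flavoprotein that oxidises succinate, was at 9.04, 9.16, 9.12 and 9.37 in naive, ConA, PLL and ConA+PLL cells at 24 h, after 8.83 in naive cells at 0 h and 8.86, 8.85 and 8.99 at 3 h. Sdhb, the iron-sulfur subunit, was at 5.90, 5.93, 5.63 and 6.06 at 24 h, and its 3 h value in ConA+PLL cells was also 6.06. The membrane anchors Sdhc and Sdhd, which bind ubiquinone, were at 6.13 and 6.99 in ConA+PLL cells at 24 h, each 0.41 above ConA cells. At 3 h they differed: Sdhc was 0.35 above ConA cells in ConA+PLL cells, and Sdhd, at 6.31, had its lowest value of the 8 arrays there. None of the 4 genes reached 1.5-fold between ConA+PLL cells and another 24 h array.

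Complex III passes electrons from ubiquinol to cytochrome c, and its genes did not follow a single pattern. Uqcrb, a small subunit at the ubiquinone site, was at 8.46 in naive cells at 0 h, 8.39, 8.69 and 8.85 in ConA, PLL and ConA+PLL cells at 3 h, and 8.15, 8.39, 8.29 and 9.03 at 24 h. It was highest in ConA+PLL cells at each time and 0.88 above naive cells at 24 h. The core proteins Uqcrc1 and Uqcrc2 were also highest in ConA+PLL cells at 24 h, at 8.34 and 8.38, and 0.29 and 0.22 above ConA. Uqcrfs1, the Rieske iron-sulfur protein, had no such peak: it ran from 5.03 in PLL cells at 3 h to 5.95 in ConA+PLL cells at 3 h, and was at 5.41 in ConA+PLL cells at 24 h. Uqcrh, the hinge protein that helps cytochrome c dock, was lowest of the 8 arrays in ConA+PLL cells at 24 h, at 6.35 against 6.53, 6.66 and 6.45 in naive, ConA and PLL cells. Uqcrq was highest in ConA cells at 3 h, at 5.61, and lowest in naive cells at 24 h, at 4.33. Uqcr11 ran from 4.59 in ConA+PLL cells at 3 h to 5.21 in naive cells at 24 h. With 7 genes going different ways, the complex III median between ConA+PLL and ConA cells at 24 h turned from 0.11 to -0.02 after centring.

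Complex IV, cytochrome c oxidase, had the most genes past 1.5-fold between ConA+PLL and ConA cells at 24 h, 4 of 11. Cox7b, a small membrane subunit, was at 5.14 in naive cells at 0 h, 5.85, 5.64 and 5.66 in ConA, PLL and ConA+PLL cells at 3 h, and 4.99, 5.22, 4.77 and 5.94 at 24 h. All 3 stimulated arrays at 3 h were thus above naive cells at 0 h, and at 24 h only ConA+PLL cells were near that level, 1.17 above PLL cells. Cox6b1, which faces the intermembrane space where cytochrome c docks, was at 5.68, 6.00, 5.66 and 6.66 in naive, ConA, PLL and ConA+PLL cells at 24 h and between 5.98 and 6.27 at 0 and 3 h, so that ConA+PLL cells lay 0.99 above naive and 0.67 above ConA cells. Cox5b, a subunit on the matrix side that binds zinc, was at 7.51 in naive cells at 0 h, 7.30, 7.41 and 7.75 at 3 h, and 7.18, 7.04, 7.27 and 7.83 at 24 h. ConA+PLL cells were highest at each time and 0.79 above ConA at 24 h. Cox7a2 was 0.60 above ConA at 24 h, and Cox8a, at 0.58, lay just short of 1.5-fold.

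The second probe sets of Cox5b and Cox7b, dimmer than the kept ones with means of 3.66 and 3.43, gave -0.15 and -0.13 between ConA+PLL and ConA cells at 24 h. Those of the 2 complex V genes past 1.5-fold gave values above 0, 0.95 for Atp5d and 0.53 for Atp5g2. Against naive cells at 0 h, the second Cox7b probe set gave -0.94, -0.70 and -0.54 in ConA, PLL and ConA+PLL cells at 3 h. Many respiratory genes have processed pseudogenes, and which copies a probe set reads was not given in the sources used here. Of complex IV, the 3 isoforms that passed and are known mainly from muscle or testis, Cox6a2, Cox6b2 and Cox7a1, had differences of -0.23, 0.14 and 0.25 between ConA+PLL and ConA cells, at levels that did not exceed 4.26.

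Complex V joins a soluble catalytic head to a membrane rotor. In the head, Atp5a1 and Atp5b, the alpha and beta subunits that form the catalytic sites, were 0.42 and 0.41 higher in ConA+PLL than in ConA cells at 24 h. Atp5b was at 9.69, 9.77, 9.60 and 10.18 in naive, ConA, PLL and ConA+PLL cells at 24 h, but at 10.04, 10.00, 9.78 and 10.23 in naive, ConA, PLL and ConA+PLL cells at 0 and 3 h, so its 24 h peak did not exceed its level at 3 h. Atp5d, the delta subunit of the central stalk, was between 5.79 and 6.07 at 0 and 3 h and at 6.02, 6.07, 6.13 and 6.73 in naive, ConA, PLL and ConA+PLL cells at 24 h. It was 0.66 above ConA cells. The gamma and epsilon subunits of the same stalk, Atp5c1 and Atp5e, differed by 0.05 and 0.08 between ConA+PLL and ConA cells. Atp5c1 stood out in naive cells at 24 h, where it was lowest at 5.45 against 5.98, 6.06 and 6.03 in ConA, PLL and ConA+PLL cells, and Atp5e was highest there, at 6.68. The second Atp5e probe set, with a mean of 6.16, was at 6.21 in naive and 6.26 in PLL cells at 24 h.

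The c subunits of the rotor ring are encoded by Atp5g1, Atp5g2 and Atp5g3, whose mature proteins are the same. All 3 lay higher in ConA+PLL than in ConA cells at 24 h, by 0.44, 0.61 and 0.42. Atp5g1 was dim, however, at 3.58, 3.43 and 3.51 in naive, ConA and PLL cells at 24 h. These values lay under the filter level of 3.62, and ConA+PLL cells were at 3.87. Atp5g2 was at 8.94 in naive cells at 0 h, 9.01, 8.53 and 8.84 in ConA, PLL and ConA+PLL cells at 3 h, and 8.79, 8.79, 8.77 and 9.40 at 24 h, so that the other 24 h arrays lay between 8.77 and 8.79 and ConA+PLL stood above them. Atp5pb and Atp5h of the stator were 0.22 and 0.30 above ConA cells. Atp5l, the g subunit at the dimer interface, was lowest in ConA+PLL cells at 3 h, at 7.43 against 8.05 in naive cells at 0 h, and at 24 h its 4 values lay between 7.74 and 7.90. Atp5md, another small membrane subunit, was at 8.35 in ConA+PLL cells at 3 h and at 7.72 at 24 h, a difference of -0.63, and Atp5j2, the f subunit, had the smallest range of all 70 genes, from 3.97 to 4.12.

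**Figure D3:**
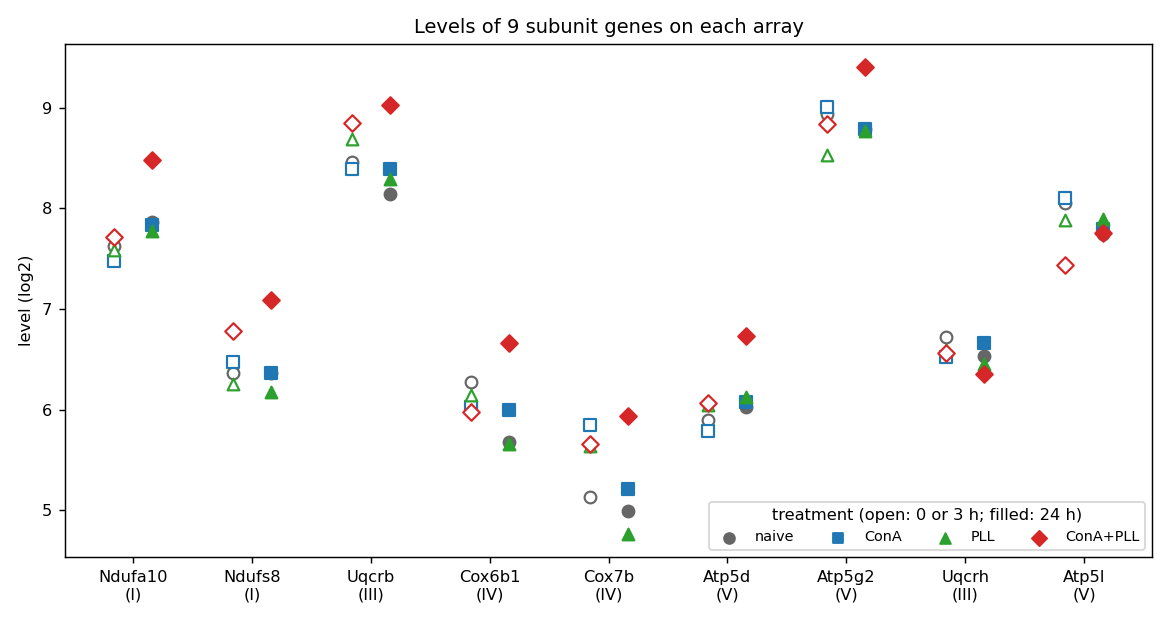
Level (log2, vertical axis) on each of the 8 arrays for 9 subunit genes (horizontal axis, complex in parentheses); open symbols are 0 or 3 h, filled symbols 24 h, and shape and colour give the treatment. In the 7 genes at the left the filled ConA+PLL diamond lies above the other filled symbols, by at least 0.60, while Uqcrh and Atp5l, at the right, were lowest in ConA+PLL cells, Uqcrh at 24 h and Atp5l at 3 h.

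At 3 h the subunit genes differed less as a group. Between ConA+PLL and ConA cells the median was 0.06, with 38 of 70 above 0 against 47.1% of all filtered genes, whose median was -0.02. Higher by at least 1.5-fold were Ndufa11 (0.76), an accessory complex I subunit, and Cox6a2 (0.68), against 3.54% of all filtered genes. Lower were Uqcrq (-0.93) and Atp5l (-0.67), against 5.5%. The second Ndufa11 probe set, dimmer than the kept one with a mean of 3.87, went the other way, at -0.98. Cox6a2 was under the filter level in ConA (3.58) and PLL cells (3.41) at 3 h. Between ConA+PLL and PLL cells the median was 0.02, with 37 of 70 above 0 against 42.8% of all. Uqcrfs1 (0.91), Cox6a2 (0.85) and Cox7c (0.61) were at least 1.5-fold higher, against 6.09% of all filtered genes, and Ndufb7 (-0.72) was lower, against 8.7%. Complex IV differed most between this pair, with a median of 0.29 and 9 of 11 genes above 0, and complex I least toward higher values, with -0.04 and 13 of 31. Cox6a1, a subunit at the dimer interface of complex IV, was at 9.31 in naive cells at 0 h, 9.40, 9.52 and 9.82 in ConA, PLL and ConA+PLL cells at 3 h, and 9.50, 9.37, 9.24 and 9.78 at 24 h, so that ConA+PLL cells were highest at both times while the order of the others differed.

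Against naive cells at 0 h, which had not been cultured for 3 h, the medians were 0.02 for ConA, 0.04 for PLL and 0.10 for ConA+PLL cells, with 38, 41 and 49 of 70 genes above 0 against 45.2%, 50.1% and 42.7% of all filtered genes. ConA+PLL cells had Ndufa5 (0.66) and Ndufa4 (0.65) at least 1.5-fold higher, against 4.63% of all, and Atp5l (-0.62) lower, against 6.35%. In ConA cells Cox7b (0.72), Uqcrq (0.69) and Atp5e (0.68) were higher, against 2.65% of all filtered genes, and none was 1.5-fold lower, against 2.38%. The second probe sets of Cox7b and Atp5e gave -0.94 and 0.01 there. In PLL cells Atp5g1 (0.66) and Ndufa4 (0.59) were higher, against 3.49%. Lower were Uqcrfs1 (-0.77), Cox7c (-0.66) and Cox6a2 (-0.66), against 2.88%. Atp5g1 in naive cells at 0 h (3.26) and Cox6a2 in PLL cells at 3 h (3.41) lay under the filter level. These 3 comparisons share the array of naive cells at 0 h.

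Between the times, naive cells had a median difference of -0.03 from 0 to 24 h, with 31 of 70 above 0 against 54.4% of all filtered genes. Atp5e (0.77) and Ndufs7 (0.71) were at least 1.5-fold higher at 24 h, against 9.12% of all filtered genes, and 5 were lower, against 5.91%, led by Cox7c (-0.90) and Cox6b2 (-0.66). The second Atp5e probe set gave 0.04. From 3 to 24 h the median was -0.07 in ConA cells with 29 of 70 above 0 against 54.7%, where Ndufv3 (0.69) and Cox6a2 (0.60) were 1.5-fold higher, against 11.5% of all filtered genes, and Uqcrq (-0.83), Ndufa1 (-0.74) and Cox7b (-0.64) lower, against 5.97%. It was -0.15 in PLL cells with 22 of 70 above 0 against 54.6%. In PLL cells no subunit gene was 1.5-fold higher, against 7% of all filtered genes, and 5 were lower, against 4.49%, with Ndufa4 (-0.92), Cox7b (-0.88) and Ndufa1 (-0.86) first. The second Cox7b probe set gave 0.56 in ConA and 0.41 in PLL cells between these times. Cox6a2 was at 3.58 in ConA cells at 3 h, under the filter level. In ConA+PLL cells the median from 3 to 24 h was 0.24, with 51 of 70 above 0 against 64.8% of all filtered genes, and the median of all genes was 0.15. There 10 subunit genes were at least 1.5-fold higher against 17.7% of all, with Ndufv3 (0.98), Ndufb10 (0.82) and Ndufa10 (0.76) first, and Atp5md alone was lower, against 5.08%. After centring, this median turned to -0.06, while that of all filtered genes was -0.15.

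**Figure D4:**
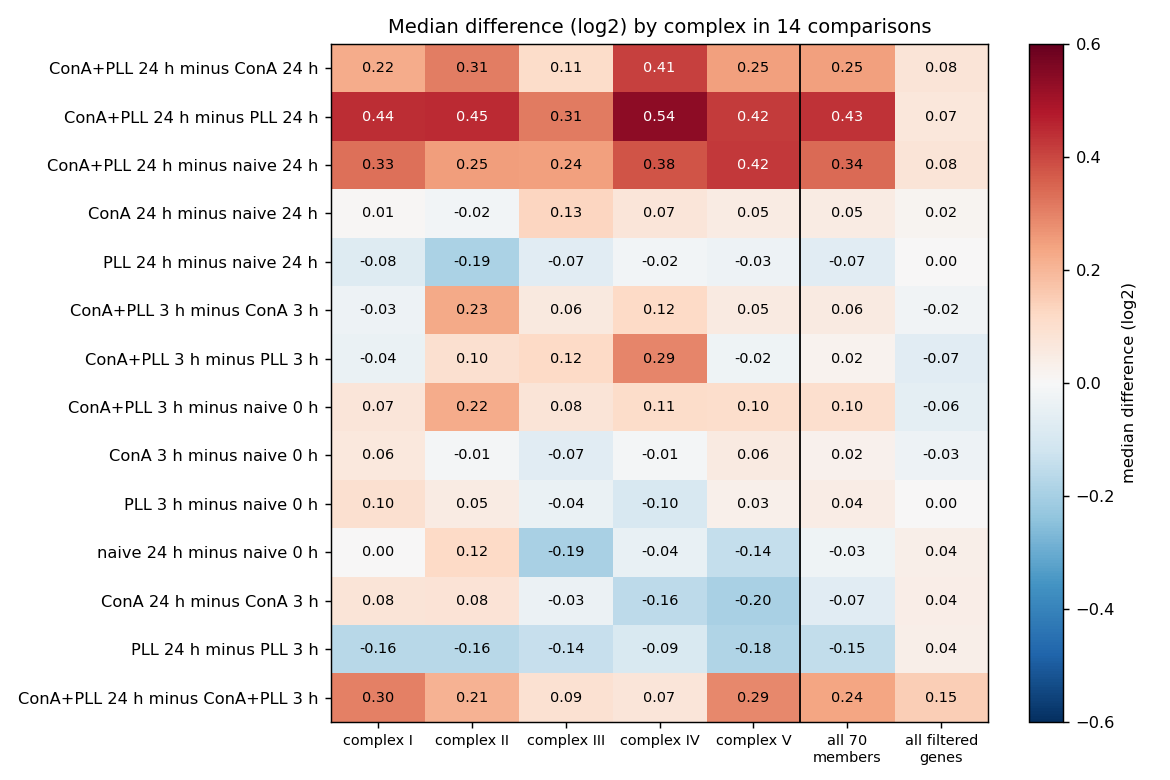
Median difference (log2, colour and number) of the genes of each complex, of all 70 subunit genes and of all filtered genes (columns) in 14 comparisons (rows). In the first 3 rows, ConA+PLL against the other 24 h arrays, every complex lies above 0, from 0.11 to 0.54, and complex IV also has 0.29 between ConA+PLL and PLL cells at 3 h.

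The subunits encoded in mitochondrial DNA did not share the 24 h pattern. Of them 10 were on the array, ND1 to ND6 and ND4L of complex I, CYTB of complex III, and COX1 and COX3 of complex IV, with levels from 10.24 to 13.00 in a table whose highest value was 13.49. Between ConA+PLL and ConA cells at 24 h none of the 10 was above 0 and the median was -0.19, and it was -0.15 against PLL and -0.10 against naive cells. After quantile normalization the 3 medians were -0.09, -0.07 and -0.06, of the same sign but smaller in size. After centring they were -0.32, -0.28 and -0.24. The ConA+PLL array at 24 h had the highest median of the filtered genes, so centring could only lower these values and could not turn their sign. ND6 was at 10.53, 10.65, 10.56 and 10.24 in naive, ConA, PLL and ConA+PLL cells at 24 h, the lowest value in ConA+PLL cells. COX1 was at 12.84, 12.86, 12.90 and 12.83 on the same arrays and so differed little. These levels lie near the top of the table, and the part of signal saturation was not tested. Other genes with a mean of at least 10, of which 119 passed, had a median of 0.03 between ConA+PLL and ConA cells, with 63 above 0, and 11 with a mean of at least 12 had -0.01. At 3 h, 8 of the 10 mitochondrial genes were above 0 between ConA+PLL and ConA cells, with a median of 0.11, which was 0.08 after quantile normalization and 0.16 after centring.

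Nuclear genes of 2 neighbouring mitochondrial systems lay higher in ConA+PLL cells at 24 h, as the subunit genes did. Beside the counts that follow stands the share of all filtered genes above 0 in that comparison, 61.6% (median 0.08) as deposited and 42.1% (median -0.05) after centring. All 16 genes of pyruvate dehydrogenase and the citric acid cycle, which feed NADH and succinate to the chain, were above 0 against ConA cells, with a median of 0.31. After centring 12 of 16 were, with a median of 0.18. Largest were Fh1 (0.75), fumarase, Idh3b (0.66), a subunit of the NAD-linked isocitrate dehydrogenase, and Idh2 (0.62), its NADP-linked counterpart. Of 71 genes for mitochondrial ribosomal proteins, which make the mtDNA-encoded subunits, 63 were above 0 with a median of 0.25, and 49 with 0.12 after centring. Assembly factors of the complexes gave 33 of 45 above 0 and a median of 0.13, but after centring the median was 0.00 with 21 of 45 above 0. Among 17 regulators of respiratory genes the median was 0.14, and 0.01 after centring. The highest were Hcfc1 (0.54), a coactivator, Myc (0.44) and Tfam (0.43), which packages mitochondrial DNA, whereas Nrf1 itself had 0.01. Myc, a growth regulator that also acts on mitochondrial genes, was at 9.66 in ConA+PLL and 8.40 in ConA cells at 3 h, against 6.62 to 7.27 at 24 h.

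Some subunit genes and electron carriers have names outside the pattern that chose the 74. Cycs, cytochrome c, was at 8.28 in naive cells at 0 h, 8.23, 8.32 and 8.63 in ConA, PLL and ConA+PLL cells at 3 h, and 7.37, 7.76, 7.31 and 8.23 at 24 h. It lay lower at 24 h than at 0 or 3 h in each treatment, with a difference of -0.40 between 24 and 3 h in ConA+PLL cells, and at 24 h ConA+PLL cells were 0.92 above PLL. Cyc1, cytochrome c1 of complex III, was 0.25 above ConA in ConA+PLL cells at 24 h. Cox4i1, the general form of a large complex IV subunit, differed by 0.05, Cox7a2l, which joins complexes III and IV, by -0.23, and Ndufab1, the acyl carrier protein held by complex I, by -0.12.

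**Figure D5:**
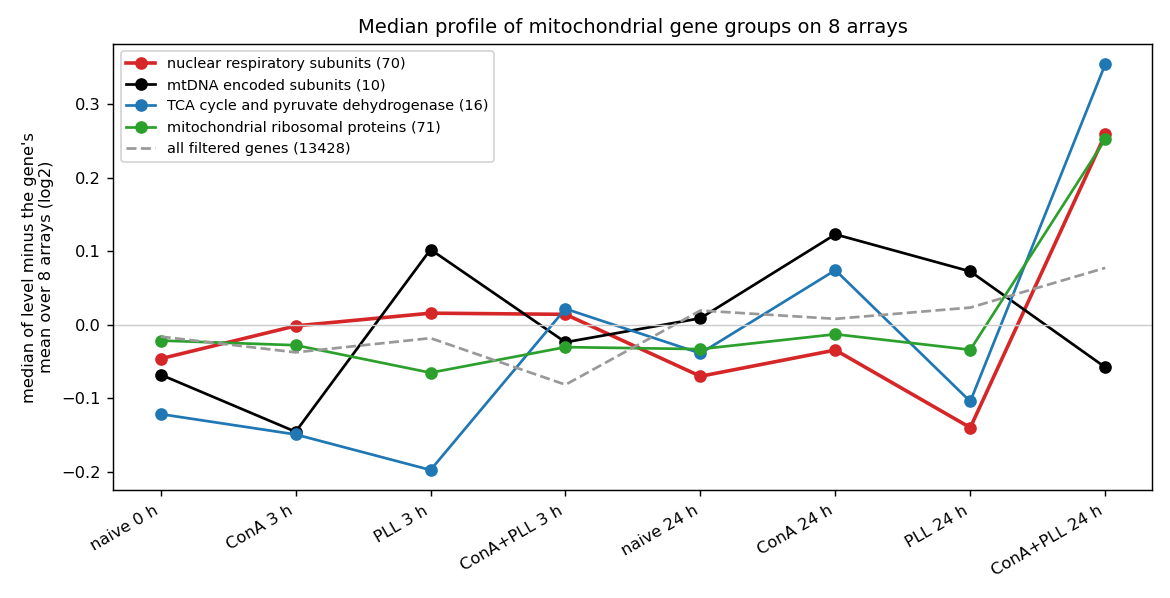
Median over genes of the level minus each gene's mean over the 8 arrays (log2, vertical axis) on each array (horizontal axis) for the 70 nuclear subunit genes, 10 mtDNA-encoded subunits, 16 citric acid cycle and pyruvate dehydrogenase genes, 71 mitochondrial ribosomal protein genes and all filtered genes. The 3 nuclear groups peak on the ConA+PLL array at 24 h, where the mtDNA-encoded genes lie below their mean.

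The subunit genes varied no more than others over the arrays: the range from the lowest to the highest array had a median of 0.63, against 0.67 for all filtered genes. Their patterns were alike to a varying degree. The Pearson correlation of a gene with the mean of the other 69 over the 8 arrays had a median of 0.59, was above 0.5 for 37 genes and below 0 for 7. It was highest for Atp5a1 (0.93), Atp5pb (0.91) and Ndufa9 (0.90), and lowest for Uqcrh (-0.47), Atp5j2 (-0.39), Ndufb8 (-0.35) and Atp5l (-0.27). These values describe only 8 arrays, and whether all 8 were normalized jointly is unknown. The ConA+PLL array at 24 h was also left out, after the data were seen. Over the other 7 arrays the median was 0.30, with 29 genes above 0.5 and 25 below 0. Outside the subunit genes, the 5 filtered genes most like their mean pattern over the 8 arrays were Dynlrb1 (0.97), a dynein light chain, Iigp1 (0.96), an interferon-induced GTPase, Tipin (0.96), a replication fork protein, Emc2 (0.96), of the membrane insertase of the endoplasmic reticulum, and Plp2 (0.96).

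The size of the difference was also set out by motif. Of the 60 subunit genes that passed and had a promoter window, the 35 with at least 1 motif had a median difference of 0.22 between ConA+PLL and ConA cells at 24 h and the 25 without had 0.36. For the NRF1 letters alone the medians were 0.27 with and 0.25 without, and for the ETS letters 0.22 with and 0.26 without. Against naive cells at 24 h the medians were 0.28 with any motif and 0.38 without, 0.37 and 0.32 for the NRF1 letters, and 0.17 and 0.38 for the ETS letters. These differences between groups of genes were not tested. Of the 7 genes at least 1.5-fold higher in ConA+PLL cells than on any other 24 h array, the windows of Ndufs8, Cox6b1 and Atp5g2 held a motif, those of Ndufa10, Cox7b and Atp5d held none, and for Uqcrb no window was used here.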

How the data were processed

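RNA of the 8 groups was measured on 1 Affymetrix mouse gene array each. Per the study's methods, the authors normalized the scans with RMA (robust multi-array average). The deposited values, 1 per probe set and array for 41345 probe sets, were read as log2 levels, since RMA gives that scale; the table does not state the log base, and the version of the software, the genome build and which arrays were normalized together were not given in the sources used here. RMA fits arrays jointly and pulls their distributions together, so a shift common to most genes of an array can be reduced. No further scaling was applied.

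Platform annotation gave a single symbol for 23521 probe sets, 1820 had several and 16004 none. All 74 subunit genes had the same symbol in the RefSeq gene table. Genes were filtered on a highest value of at least the table median, and 1.5-fold was used as the size of a named difference. Named genes were all members of complexes II and III, the core subunits of complex I, the F1 subunits, the highest and lowest differences of each comparison, all members past 1.5-fold in comparisons matched in time, those that failed the filter, and up to 4 genes of each other list. The members and lists were chosen with earlier results of these data known. Lists of granulocyte, dendritic cell and erythroid markers gave summed levels of at most 36.3, 54.9 and 14.7. Depth is not defined for arrays, and their number limits the precision: no spread between samples could be measured. Python 3.11.15, numpy 2.4.6 and pandas 2.3.3 were used, the summaries were tested on simulated data, and 16 alternative settings were tried.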

Additional observations from a re-analysis of the deposited data

Results flagged for a closer look

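Differences of opposite sign at the early and the late time were looked for in the 5 contrasts that exist at both times, over all subunit genes and by complex. With 1 array per group none of these differences between times was tested, and several are close to 0. ConA+PLL minus ConA gave a complex I median of -0.0318 at 3 h and 0.225 at 24 h. All filtered genes had -0.0223 and 0.0764 there. ConA+PLL minus PLL gave -0.0416 at 3 h and 0.445 at 24 h for complex I, and -0.0242 and 0.422 for complex V. The median of all filtered genes was -0.0666 and 0.0667 in that contrast, so both complexes lay above it at each time. For complex III, ConA minus naive gave -0.067 early, against naive cells at 0 h, and 0.129 at 24 h. For complex IV it gave -0.00942 and 0.0729, and all filtered genes had -0.0296 and 0.0177. PLL minus naive went the other way, from 0.0438 early to -0.0679 at 24 h over all subunit genes. It went from 0.0958 to -0.0772 for complex I, from 0.0478 to -0.189 for complex II, and from 0.0298 to -0.0285 for complex V. All filtered genes had 0.00084 and 0.00141 in this last contrast.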

How the results depend on the processing

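With 1 array per group no array could be left out of a comparison between groups, and values differ between arrays by an unknown error. No paired analysis was possible because no group had a replicate. Over 16 alternative settings, the median over all subunit genes moved by at most 0.1 in 159 of 169 results. It moved further in 9, and in 1 a median of at least 0.1 in size changed sign. Medians of single complexes did so in 765, 103 and 7 of 875. A change of sign of a median under 0.1 in size was not counted as such. Centring each array on its filtered genes gave 0.119 for ConA+PLL minus ConA, 0.298 for ConA+PLL minus PLL and 0.201 for ConA+PLL minus naive at 24 h, 0.129 for ConA+PLL minus PLL at 3 h, -0.187 for ConA from 3 to 24 h and 0.261 for the ConA difference with minus without PLL, and turned ConA+PLL from 3 to 24 h to -0.0639 (complex II -0.0899, complex V -0.0124) and complex III in ConA+PLL minus ConA to -0.0178. Centring subtracts each array's own gene median, so by construction it moved all genes of a comparison alike. The 20 subunit genes with a mean of at least 7 gave 0.406 against ConA, 0.542 against PLL at 24 h and 0.125 against PLL at 3 h, and the 1 complex II gene among them, Sdha, gave 0.0735 for PLL minus naive and 0.272 for PLL from 3 to 24 h. With naive cells at 0 h as the control, complex III gave -0.0269 for ConA+PLL and -0.067 for ConA cells at 24 h. For these 2 settings the cause was not tested. At least 1.5-fold higher in ConA+PLL than in ConA, PLL and naive cells at 24 h were 9, 14 and 12 genes. After centring these counts were 3, 6 and 3, against 2.66%, 3.81% and 3.8% of all filtered genes. After quantile normalization they were 6, 7 and 5, against 4.86%, 5.55% and 5.74%. Among the 61 genes with 1 probe set the first 2 counts were 5 and 9, against 5.19% and 6.58%. At a lower limit of 0.322 (log2) the counts were 27, 41 and 39, and at 2-fold 0, 2 and 0. For these 2 limits no share of all filtered genes is given here, so the counts are not set against one. Of all counts of subunit genes, 126 of 552 changed by over 1.5 times, or to or from 0. These include counts at the other fold limits, where a change follows from the limit itself.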

Other observations

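The 10 probe sets that named a subunit gene together with another symbol, left out above because their signal cannot be given to 1 gene, had a median difference of 0.49 between ConA+PLL and ConA cells at 24 h, with 10 of 10 above 0, against 61.6% of all filtered genes. Against PLL and naive cells at 24 h their medians were 0.44, with 9 of 10 above 0 against 59%, and 0.36, with 8 of 10 above 0 against 60.1%. ConA minus naive cells at 24 h gave -0.20 and PLL minus naive cells -0.09. Several carry a symbol of a near copy of the subunit gene, such as Uqcrb with Gm10767, Ndufs6 with Ndufs6b and Cox6c with Gm6265. Cox6c and Ndufs6 were each named on more than 1 of the 10 probe sets, so these are not 10 separate genes. Ndufs1, Ndufs5 and Uqcrb also belong to the 74 genes followed above. The level filter was not applied to these probe sets, unlike the genes they are set beside.

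Idh2 had the largest difference of the citric acid cycle genes between the times, with levels of 5.11 in ConA+PLL cells at 3 h and 7.81 at 24 h. It was at 6.00 in naive cells at 0 h, at 5.76 and 6.10 in ConA and PLL cells at 3 h, and between 7.19 and 7.34 in these groups at 24 h. Idh2 was thus higher at 24 h with and without treatment. Polg2, the accessory subunit of the mitochondrial DNA polymerase, went the other way, at 7.54 in ConA+PLL cells at 3 h and 5.84 at 24 h, with 7.23 in naive cells at 0 h and 5.82 at 24 h, so that the 24 h arrays lay low irrespective of the treatment. Pprc1, a coactivator of respiratory gene expression, was at 6.36 in ConA+PLL cells at 3 h and between 5.11 and 5.69 on the other 7 arrays. These 3 genes were chosen after their values were seen.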
